A study of Rattus norvegicus with 9 samples.

Results

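Introns are transcribed with the rest of a gene and are normally removed from the pre-mRNA by splicing, so that the mature mRNA holds exons only. A library made from polyadenylated RNA can nevertheless hold intronic fragments on the strand of the gene, from pre-mRNA that was not yet spliced, from retained introns, from excised introns, from transcripts that end inside an intron or from independent transcripts that start there. These sources were not told apart here. The transcripts described below were assembled by Cufflinks from such fragments without matching any annotated transcript.

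A transcript was counted as a host-strand intronic transcript when it was unannotated, had exactly 1 exon, overlapped no annotated exon on either strand and lay wholly inside the span of an annotated transcript on the same strand. Across the 9 libraries, 251015 of 817330 assembled transcripts met this rule, out of 471913 unannotated transcripts with 1 exon. They lay in 8162 annotated genes, called host genes here. The rule used position and exon structure only, and no measured level. Symbols were known for 837 of the host genes, and 3867 had no gene identifier and are known by a transcript only.

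The 9 libraries came from rat bone marrow MSCs in 3 groups of 3. The MSCs were untreated cells at passage 3, from 3 Sprague Dawley rats 4 weeks old. NPCs were made at passage 3 from the MSCs of these rats, per the study's methods, and were induced for 3 days with EGF and bFGF at 20 ng/ml each in NeuroCult medium on ultra-low attachment plates, where they grow as floating spheres. The third group, called NPC + IGF-1 here, received EGF, bFGF and IGF-1 for 3 days, and the dose of IGF-1 was not given. A stranded kit that selects mRNA by its poly(A) tail was used on 300 ng of RNA per library. No library of the suspension medium without growth factors was part of the series, so the effects of medium, suspension and factors cannot be told apart.

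The libraries held an estimated 41.1 to 53.5 M fragments (M for 1e6), and depth overlapped between the groups. Of 23 marker genes fixed for the check of cell type, 7 could be named in the files. Among these, the beta 1 integrin gene Itgb1 was at 203 to 271 FPKM in the 6 induced libraries and at 996 to 1217 FPKM in the MSC libraries, and the adhesion gene Vcam1 was at 2.04 to 4.81 FPKM in the induced libraries against 0.024 to 0.087 FPKM. The neural progenitor gene Nes lay between 0.27 and 0.33 FPKM in the induced libraries and between 0.053 and 0.15 FPKM in the MSC libraries. Fabp7, of neural progenitors, and Rbfox3, of neurons, were listed at 0 in every library. A 0 for annotated transcripts can also occur for a gene whose signal was assembled into unannotated isoforms. With such isoforms added, Fabp7 and Rbfox3 were still at 0 in every library, which alone does not show absence. The macrophage gene Cd68 was at 4.06 to 11.4 FPKM in the induced libraries and 0.23 to 0.50 FPKM in the MSC libraries, while the pan-leukocyte gene Ptprc did not exceed 0.014 FPKM anywhere. The part of the cell types in the results below was not tested. In bulk RNA, more cells of one type and more RNA per cell cannot be told apart.

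Induced cells had far more host-strand intronic transcripts than MSCs. The 3 NPC libraries held 48345, 44912 and 34392 of them, and the 3 NPC + IGF-1 libraries held 36171, 29416 and 33054. The 3 MSC libraries held 6627, 11025 and 7073. Every induced library was above every MSC library, and the 2 induced groups overlapped each other. The means were 42550 ± 7270 (SD, n = 3) in NPCs, 32880 ± 3381 in NPC + IGF-1 and 8242 ± 2421 in MSCs, which is 5.16 and 3.99 times the MSC mean.

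**Figure D1:**
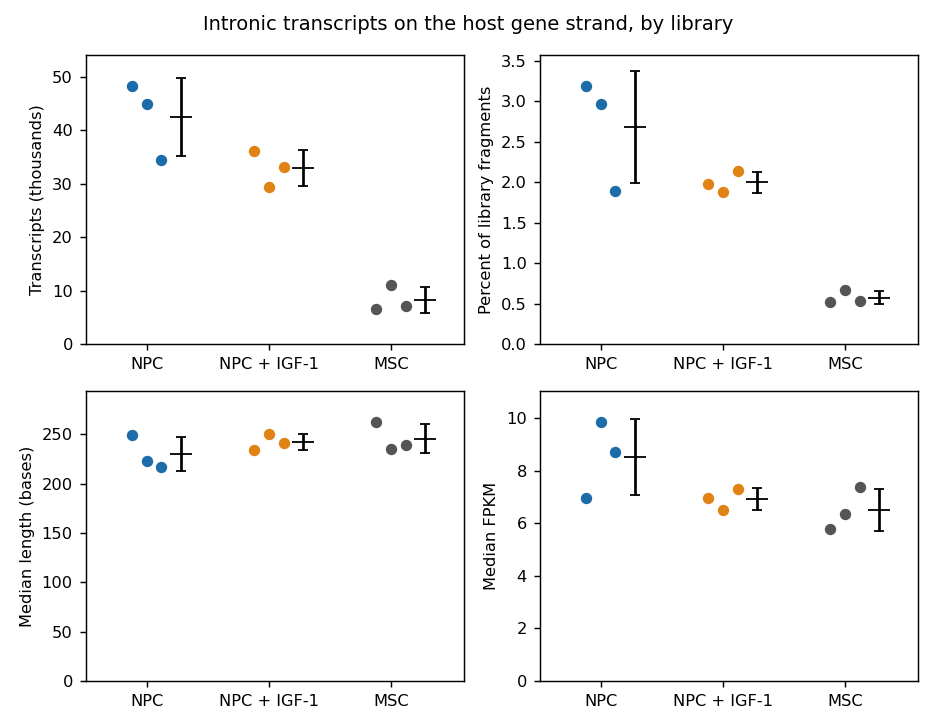
Number of host-strand intronic transcripts (in units of 1000), their percent of library fragments, their median length (bases) and their median FPKM in each of the 9 libraries, with the mean and SD of each group of 3. The upper panels show every induced library above every MSC library, with counts of 29416 to 48345 against 6627 to 11025, and the lower panels show overlapping groups.

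The same order held for the fragments they carried. Host-strand intronic transcripts took 3.20%, 2.96% and 1.89% of the fragments of the NPC libraries, and 1.98%, 1.88% and 2.14% in NPC + IGF-1. In the MSC libraries they took 0.527%, 0.669% and 0.532%. The mean share was 4.66 times the MSC mean in NPCs and 3.47 times in NPC + IGF-1. Fragments were derived from the confidence interval of each FPKM. With the assembler's own coverage times length as the measure, relative to the summed coverage of the library, the log2 differences of the groups fell from 2.22 to 1.08 for NPCs and from 1.8 to 0.85 for NPC + IGF-1, so the direction was kept and the size was not.

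Exact permutation tests over libraries (two-sided) were run for 6 quantities in 4 comparisons. A comparison of 3 against 3 libraries cannot give a p under 0.1, and this value was reached for the number of transcripts, host genes, fragments and host-strand share in NPCs and in NPC + IGF-1 against MSCs. With the 6 induced libraries set against the 3 MSC libraries the number of transcripts was 4.58 times higher, with an exact permutation p of 0.0238, the smallest this design allows, and 0.143 after Benjamini-Hochberg adjustment over the 24 tests. These tests took the libraries as independent, although the NPCs were made from MSCs of the same rats. With the replicate number as a block, the exact permutation p for the number was 0.0741. No per-library result was under 0.05 after adjustment.

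The transcripts lay in more genes, and each gene held more of them. The NPC libraries had 6502, 6272 and 5543 host genes, and the NPC + IGF-1 libraries had 5434, 5310 and 5491. The MSC libraries had 2121, 3104 and 2278. A host gene held 6.20 to 7.44 transcripts on average in the NPC libraries, 5.54 to 6.66 in NPC + IGF-1 and 3.10 to 3.55 in MSCs. Summed over a library, the transcripts covered 9.44 to 15.5 Mb in NPCs, 9.29 to 10.8 Mb in NPC + IGF-1 and 2.14 to 3.29 Mb in MSCs.

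The transcripts themselves were alike in length in all groups. The median length was 249, 223 and 217 bases in NPCs, 234, 250 and 241 bases in NPC + IGF-1 and 262, 235 and 239 bases in MSCs, so the groups overlapped, and single transcripts ran from 50 to 9126 bases. The median FPKM was 6.96, 9.83 and 8.71 in NPCs, 6.96, 6.49 and 7.31 in NPC + IGF-1 and 5.78, 6.34 and 7.36 in MSCs, again with overlapping groups. The 6 induced libraries against the 3 MSC libraries gave exact permutation p values of 0.357 for length and 0.167 for FPKM. FPKM is divided by an effective length and is inflated in transcripts this short. Most transcripts rested on few fragments, with a median of 14 to 16 per library, and 31.6% to 38.2% of them had fewer than 12.

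The rise was larger on the host strand than elsewhere. Among unannotated transcripts with 1 exon inside genes, the host strand held 97.7%, 97.6% and 96.5% of the fragments in NPCs and 96.9%, 96.9% and 97.1% in NPC + IGF-1. It held 94.4%, 95% and 95% in MSCs, and no induced library fell into the MSC range. The mean difference between induced and MSC libraries was 2.30 percentage points (exact permutation p = 0.0238, 0.143 after adjustment). Over the same libraries, fragments of intronic transcripts on the other strand were 2.16 times and fragments of transcripts between genes 1.58 times the MSC mean. The host-strand fragments therefore rose 1.85-fold more than those of the other strand and 2.53-fold more than those between genes, as geometric means. Each of these contrasts had an exact permutation p of 0.0238 and an adjusted value of 0.0952 over 8 tests that were added after the data were seen.

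Within genes, the shares of the first intron overlapped between the groups, and those of the last intron did not. The first intron held 34.0% to 36.5% of them in the induced libraries and 30.5% to 36.3% in the MSC libraries. The last intron held 8.65% to 9.27% in the induced libraries and 10.9% to 13.8% in the MSC libraries (exact permutation p = 0.0238, the smallest possible, and 0.152 after adjustment over 64 tests). A stretch of 1000 bases around annotated exons held 41.8% to 47.3% of the transcripts in the induced libraries and 45.0% to 48.1% in MSCs. The median length of the intron they lay in was 6422 to 8121 bases in the induced libraries and 6431 to 7061 bases in MSCs. The 10 host genes with the highest levels took 5.48% to 8.35% of the intronic level in the induced libraries and 13.3% to 16.4% in MSCs.

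Genes with long introns held such transcripts more often in every library. Of the annotated genes with introns and at least 1 FPKM, 59.6%, 56.9% and 50.4% held at least 1 host-strand intronic transcript in NPCs, 49.5%, 48.2% and 50.02% in NPC + IGF-1 and 18.7%, 27.4% and 20.1% in MSCs. Among genes with under 10 kb of intron, the share was 31.8% to 40.0% in the induced libraries and 11.7% to 17.3% in MSCs. Among genes with 50 kb or more it was 60.6% to 75.5% and 26.4% to 38.4%. The induced libraries were above the MSC libraries in all 3 classes of intron length, and hosting was thus not confined to genes with long introns.

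**Figure D2:**
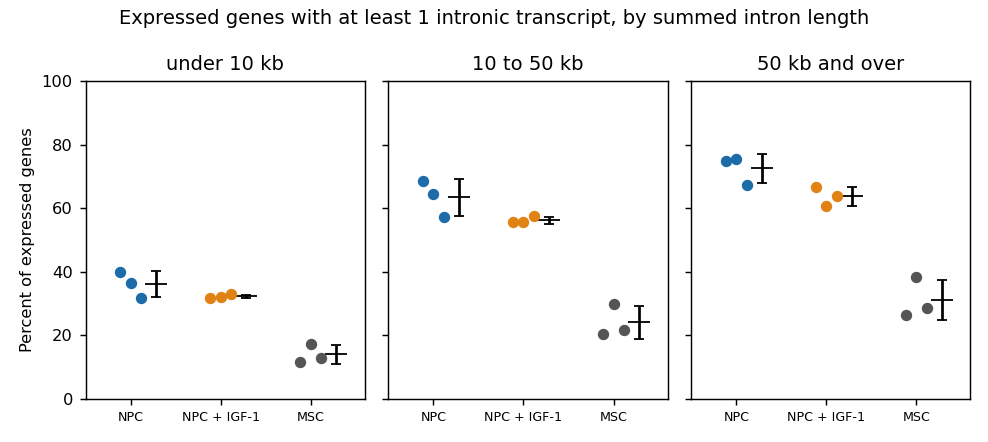
Percent of expressed genes (at least 1 FPKM, with introns) that held at least 1 host-strand intronic transcript in each library, for genes with under 10 kb, 10 to 50 kb and 50 kb or more of summed intron; bars are the mean and SD of 3 libraries. Every induced library lies above every MSC library in each panel, and the share grows with intron length in all groups.

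Positions recurred between libraries only in part. Transcripts of all libraries that overlapped on 1 strand were merged into 92010 loci, of which 50258 (54.6%) were seen in a single library. A total of 954 loci were seen in all 9 libraries, 1881 in all 6 induced libraries and in no MSC library, and 94 in all 3 MSC libraries and in no induced library. Of the 1881 loci, 41 had another assembled transcript in an MSC library. Of the transcripts of an MSC library, 52.4% to 66.3% overlapped one of a given induced library, and of the transcripts of an induced library 8.04% to 18.7% overlapped one of a given MSC library. Of the transcripts of an NPC library 35.2% to 53.1% overlapped one of another NPC library, and for MSC libraries the range was 30.3% to 51.5%.

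Some single loci in introns of named genes show the pattern at one position. Positions are given as in the files, and for the genome build: not given in the sources used here. These genes were picked among named hosts after the values were seen. In intron 3 of Ankrd10, an ankyrin repeat gene, the locus at chr16:82683098-82688408 on the plus strand was at 47.1, 29.6 and 14.9 fragments per M in NPCs, 19.7, 26.5 and 22.7 in NPC + IGF-1 and 6.98, 7.90 and 6.91 in MSCs. The level of every induced library was above those of the MSCs, and the locus lay 1634 bases from the nearest annotated exon of its strand. In intron 1 of Bcl6, a transcriptional repressor known from germinal centre B cells, the locus at chr11:80469535-80475594 on the minus strand was at 29.1, 14.7 and 14.6 in NPCs, 16.3, 24.6 and 22.9 in NPC + IGF-1 and 0.928, 0.402 and 0.812 in MSCs. In intron 1 of C1qtnf7, a gene of the secreted C1q/TNF-related family, the locus at chr14:72142278-72147736 on the minus strand was at 14.3, 25.4 and 13.9 in NPCs, 18.6, 17.6 and 19.4 in NPC + IGF-1 and 3.09, 3.59 and 4.20 in MSCs. This last locus began 2 bases from an annotated exon. Of the other named loci high in all 9 libraries, that of Tfpi was above MSCs in every induced library. Those of Pgm2l1 and Btg2 were not. Pgm2l1 was at 4.81, 8.13 and 6.88 in NPCs, 7.06, 1.71 and 5.66 in NPC + IGF-1 and 7.75, 3.16 and 4.09 in MSCs. Btg2 was at 6.41 to 8.95 in NPCs, but at 2.05 to 2.87 in NPC + IGF-1 against 1.70 to 3.44 in MSCs.

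Other loci had no counterpart in MSCs. In intron 3 of Glis3, a zinc finger transcription factor known from pancreas and thyroid, the locus at chr1:253868433-253877825 on the minus strand spanned 9393 bases and was at 9.66, 16.3 and 5.22 fragments per M in NPCs and 6.78, 10.2 and 13.2 in NPC + IGF-1, with no transcript in any MSC library. In intron 2 of Bcl2l11, which encodes the pro-apoptotic protein Bim, the locus at chr3:126594644-126599539 on the minus strand was at 11.4, 8.85 and 3.01 in NPCs and 6.58, 10.1 and 11.7 in NPC + IGF-1. In intron 2 of Prg4, which encodes the joint lubricant lubricin, the locus at chr13:72651164-72652072 on the minus strand was at 3.08, 2.79 and 5.87 in NPCs and 3.63, 10.3 and 14.5 in NPC + IGF-1. Loci seen in the MSC libraries and in no induced library were weak by comparison. One in intron 1 of Il18r1, the interleukin 18 receptor gene, at chr9:46870977-46872086 on the plus strand, was at 0.214, 0.709 and 0.872.

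For each host gene, the fragments of its intronic transcripts were summed to an intronic level in fragments per M, divided by a size factor of the library and compared with limma on log2(level + 0.1). Of the 8162 host genes, 5135 passed the filter of a level of at least 0.1 in at least 3 libraries for NPCs against MSCs and 6315 for the comparisons with NPC + IGF-1. A gene was called changed where the log2 difference reached 1 in size and the adjusted p did not exceed 0.05. In NPCs against MSCs, the intronic level of 3913 genes (76.2%) rose and that of 66 (1.29%) fell. In NPC + IGF-1 against MSCs, 3007 (47.6%) rose and 72 (1.14%) fell. Many host genes passed the filter only through the induced libraries and had to differ, so these counts describe the libraries and support nothing further. The levels of the groups did not overlap in 78.6% and 53.8% of the host genes tested. Both comparisons share the 3 MSC libraries.

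The 1184 host genes that held intronic transcripts in all 9 libraries were at 0 in none of them. Their levels still left out any position where no transcript was assembled in a library. How far such positions bear on the differences of these genes was not tested. Their median log2 difference was 2.03 in NPCs and 1.60 in NPC + IGF-1 against MSCs, with 1112 and 1076 of them above 0. Of these genes, 804 (67.9%) and 670 (56.6%) passed the test upward, and 11 and 18 passed it downward. Their annotated mRNA, the summed FPKM of the annotated transcripts of the gene, had median log2 differences of 0.03 and 0.09. The size factors come from annotated genes and hold the median mRNA change near 0, so these medians are not a separate finding. With unannotated isoforms that share exon bases with the gene added to its mRNA, the medians were 0.33 and 0.24.

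**Figure D3:**
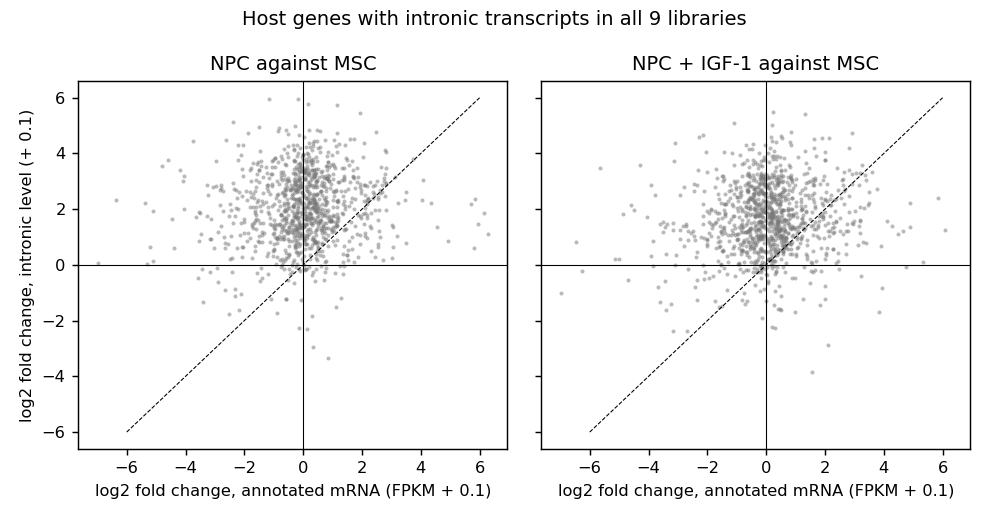
Log2 fold change of the intronic level (+ 0.1) against that of annotated mRNA (FPKM + 0.1) for host genes with intronic transcripts in all 9 libraries whose mRNA was also tested, 1033 for NPCs and 1089 for NPC + IGF-1 against MSCs; each point is 1 gene and the dashed line marks equal change. Of these, 974 and 992 lie above 0 on the intronic axis and 914 and 905 lie above the dashed line. The mRNA changes are centred near 0, where the size factors taken from annotated genes tend to set them.

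The annotated mRNA was fitted in the same way. Over all annotated genes tested, mRNA rose in 602 (4.69%) and fell in 593 (4.62%) in NPCs against MSCs, and rose in 765 (5.52%) and fell in 729 (5.26%) in NPC + IGF-1 against MSCs. With unannotated isoforms added to the mRNA, many more genes passed, with 1873 up and 1165 down in NPCs and 1836 up and 1251 down in NPC + IGF-1. Of the 3913 host genes with a higher intronic level in NPCs, 115 had higher annotated mRNA, 90 had lower annotated mRNA, 3322 did not pass the mRNA test and 386 were not tested. For NPC + IGF-1 the numbers were 109, 73, 2639 and 186. The log2 ratio of intronic level to host mRNA was fitted on the same filtered hosts, so its counts carry the same selection and support nothing further. It rose in 2420 host genes (47.1%) and fell in 37 (0.721%) in NPCs, and rose in 1440 (22.8%) and fell in 35 (0.554%) in NPC + IGF-1. The ratio calls in NPCs depended on single libraries. Without NPC replicate 1, limma called 0 host genes (1282 at an unadjusted p under 0.05), without NPC replicate 2 it called 1 (1332 at an unadjusted p under 0.05), and without NPC replicate 3 it called 934.

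Most genes with the highest levels and folds had no symbol. One host known only as ENSRNOT00000025294, on chromosome 3, was at 146, 178 and 140.5 fragments per M in NPCs and 101, 118 and 150.3 in NPC + IGF-1, and was listed at 0 in all MSC libraries. Its annotated mRNA was at 182, 213 and 245 FPKM in NPCs, 193, 167 and 195 FPKM in NPC + IGF-1 and 140.3, 182 and 178 FPKM in MSCs, and did not pass the test (adjusted p = 0.235 and 0.585). The host thus had abundant mRNA in every group and intronic transcripts in the induced cells alone. The named genes below were chosen from those with a symbol, mostly after their values were seen. Where all MSC libraries were listed at 0, no fold is given. Calls that did not hold with FPKM times length, the measure first intended, or with coverage times length are marked, and they are many.

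Among transcription factors, Glis3 had the most intronic transcripts of the named genes, 1087 over the libraries. Its intronic level was 83.0, 179.8 and 42.7 in NPCs and 63.2, 84 and 124 in NPC + IGF-1, and it was listed at 0 in all MSC libraries. Glis3 mRNA was at 3.33, 3.11 and 3.07 FPKM in NPCs, 1.99, 3.09 and 4.42 FPKM in NPC + IGF-1 and 0.995, 1.45 and 1.24 FPKM in MSCs, a log2 difference of 1.36 ± 0.31 (SE) in NPCs that did not hold when any 1 library was left out or with the replicate number as a block. Tox, an HMG-box factor of T cell development, was at 24.9, 41.6 and 4.87 in NPCs and 11, 5.61 and 5.44 in NPC + IGF-1 and was listed at 0 in MSCs. Its annotated mRNA stayed at or below 2.06 FPKM in every library and did not pass the test. The Wnt pathway factor Tcf7l1 had intronic levels of 17.4, 7.29 and 2.94 in NPCs and 12.4, 10.1 and 10.7 in NPC + IGF-1, with none in MSCs and annotated mRNA at or below 1.05 FPKM. Sox5, a factor of cartilage and neuronal development, was at 7.26, 30.4 and 5.05 in NPCs, 6.93, 5.52 and 8.87 in NPC + IGF-1 and 0, 0 and 0.263 in MSCs. Hosts with no or almost no intronic level in MSCs, such as these 4 factors, passed the filter only through induced libraries, so the test of their intronic level carries no weight and its p is not given. With unannotated isoforms added, the mRNA of each of them rose, by log2 differences in NPCs of 1.65 for Glis3, 2.05 for Tox, 1.66 for Tcf7l1 and 2.43 for Sox5.

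For several transcription factors intronic level and mRNA were both higher in the induced libraries. Bcl6 intronic levels were 33.7, 18.5 and 18.9 in NPCs, 18.8, 28.9 and 34.7 in NPC + IGF-1 and 0.928, 0.830 and 1.39 in MSCs, with log2 differences of 4.39 ± 0.44 (SE) and 4.57 ± 0.41 (limma adjusted p = 0.000782 and 1.34e-05). Bcl6 mRNA was at 15.6 to 22.1 FPKM in the induced libraries and at 3.95 to 4.90 FPKM in MSCs, with log2 differences of 2.06 ± 0.16 and 2.13 ± 0.15. The intronic rise of Bcl6 was larger in size, but the ratio to mRNA did not pass the test (adjusted p = 0.0567 and 0.0558), and with isoforms added to the mRNA it did (adjusted p = 0.00559 and 0.00198). Snai1, a repressor that acts in epithelial to mesenchymal transition, was at 10.1, 10.8 and 7.07 in NPCs, 13.5, 17.2 and 19.6 in NPC + IGF-1 and 0.246, 2.34 and 0.325 in MSCs, and its mRNA was at 21.0 to 37.6 FPKM against 8.03 to 10.2 FPKM. Bcl3, an atypical IkappaB protein of the NF-kappaB pathway, had intronic levels of 2.11 to 12.1 in the induced libraries and none in MSCs, and mRNA of 3.03 to 3.68 FPKM against 0.202 to 0.320 FPKM. The mesoderm homeobox gene Meox2 was at 1.02 to 15.3 against none, with mRNA of 10.9 to 15.1 FPKM against 2.41 to 4.49 FPKM. Nr3c1, the glucocorticoid receptor gene, was at 1.46 to 5.49 in the induced libraries and 0, 0.222 and 0 in MSCs, with mRNA of 23.5 to 32.9 FPKM against 12.7 to 14.3 FPKM. The mRNA call of Nr3c1 passed the fold threshold in NPCs only (log2 difference 1.05, and 0.94 in NPC + IGF-1), and its intronic call in NPC + IGF-1 did not hold with coverage times length. Nr3c1 passed the filter of the intronic level only through induced libraries, so that test carries no weight. The mRNA calls of Nr3c1 and Snai1 in NPCs were lost without NPC replicate 1, MSC replicate 1 or MSC replicate 2, and that of Nr3c1 also without NPC replicate 2. With the replicate number as a block, the mRNA calls of Bcl3, Meox2, Nr3c1 and Snai1 in NPCs were lost. These genes come in part from a list of genes chosen for their mRNA change in the study, so the direction of their mRNA is not independent evidence.

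Genes of other functions also had higher intronic levels in the induced libraries. Ctsc, which encodes the lysosomal protease cathepsin C, had intronic levels of 15.2, 30.5 and 7.24 in NPCs, 13.4, 20.4 and 24.3 in NPC + IGF-1 and 1.08, 1.19 and 0 in MSCs, and its mRNA was at 15.1 to 29.1 FPKM against 4.08 to 5.92 FPKM. Gclc, the catalytic subunit of the first enzyme of glutathione synthesis, was at 10.9, 16.7 and 5.51 in NPCs, 3.06, 2.69 and 7.27 in NPC + IGF-1 and 0, 0 and 0.498 in MSCs, with mRNA of 17.3 to 40.0 FPKM against 6.92 to 7.77 FPKM. C1qtnf7 was at 40.6, 52.1 and 19.0 in NPCs, 30.1, 19.2 and 27.7 in NPC + IGF-1 and 3.09, 4.17 and 4.41 in MSCs. Its annotated mRNA was at 5.66, 19.2 and 13.9 FPKM in NPCs, 19.1, 18.9 and 15.3 FPKM in NPC + IGF-1 and 5.70, 2.15 and 2.6 FPKM in MSCs, and passed the test in NPC + IGF-1 (log2 difference 2.44, limma adjusted p = 0.0155) and not in NPCs (adjusted p = 0.0982). Intronic levels did not overlap between induced cells and MSCs for any of these genes, but the intronic calls of Ctsc and Gclc were lost with both other measures of level. Gclc passed the filter only through induced libraries, and Ctsc, at 0 in 1 MSC library, needed them as well. The tests of their intronic level thus carry no weight. In NPCs the mRNA call of Ctsc was lost without MSC replicate 1, and that of Gclc without NPC replicate 2, MSC replicate 1 or MSC replicate 2. The latter was also lost with the replicate number as a block.

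In Elavl1 the intronic level rose and the mRNA did not pass the test. Elavl1, the gene of the RNA-binding protein HuR, had intronic levels of 32.8, 30.4 and 20.5 in NPCs, 24.7, 26.5 and 27.7 in NPC + IGF-1 and 2.61, 2.25 and 0 in MSCs, while its mRNA was at 13.4 to 17.9 FPKM in the induced libraries and 15.8 to 21.2 FPKM in MSCs. The log2 difference of Elavl1 was 5.07 ± 1.18 (SE) for the intronic level and -0.32 ± 0.17 for mRNA in NPCs, and the ratio passed the test. Elavl1, at 0 in 1 MSC library, could pass the filter only with induced libraries. The tests of its intronic level and ratio thus carry no weight, and their p is not given. The ratio call was also lost without NPC replicate 1, where no host was called. Jmjd1c, of a family of histone demethylases, was at 23.6, 24.1 and 14.4 in NPCs, 17.7, 17.5 and 19.0 in NPC + IGF-1 and 2.70, 4.32 and 3.16 in MSCs. Ankrd10 was at 63.2, 44.9 and 23.3 in NPCs, 32.6, 36.3 and 29.9 in NPC + IGF-1 and 9.25, 14.2 and 9.26 in MSCs. The intronic calls of Elavl1 and Jmjd1c were lost with both other measures, that of Elavl1 in NPCs also without NPC replicate 1 or 3, and that of Ankrd10 with coverage times length and, in NPC + IGF-1, with FPKM times length. Annotated mRNA of Jmjd1c and Ankrd10 was listed at 0 in 1 or more libraries and did not pass the test. With isoforms added, the mRNA of Jmjd1c rose by 1.07 and that of Ankrd10 by 2.19 on the log2 scale in NPCs. In Bcl2l11 the intronic level was 26.4, 16.5 and 5.25 in NPCs and 15.4, 23.6 and 23.2 in NPC + IGF-1, with none in MSCs, and its annotated mRNA was listed at 0 in 2 induced libraries. With isoforms added, Bcl2l11 mRNA was at 9.76 to 25.2 FPKM in the induced libraries and 1.27 to 2.98 FPKM in MSCs.

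Pde1c, a calcium and calmodulin dependent phosphodiesterase gene, had intronic levels of 34.4, 20.8 and 8.08 in NPCs and 25.1, 29.2 and 23.3 in NPC + IGF-1, with none in MSCs. Its annotated mRNA was listed at 0 in 5 of the 6 induced libraries, but with unannotated isoforms added it was at 4.72 to 16.3 FPKM in the induced libraries and 0.068 to 0.117 FPKM in MSCs. Most of the Pde1c signal over exons in the induced cells was thus in assembled isoforms outside the annotation. The intronic level of Prg4 was 11.4, 12 and 19.8 in NPCs and 13.7, 28.3 and 48.8 in NPC + IGF-1, and its mRNA with isoforms added was at 18.6 to 91.3 FPKM in the induced libraries. Both values of Prg4 were 0 in all MSC libraries.

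**Figure D4:**
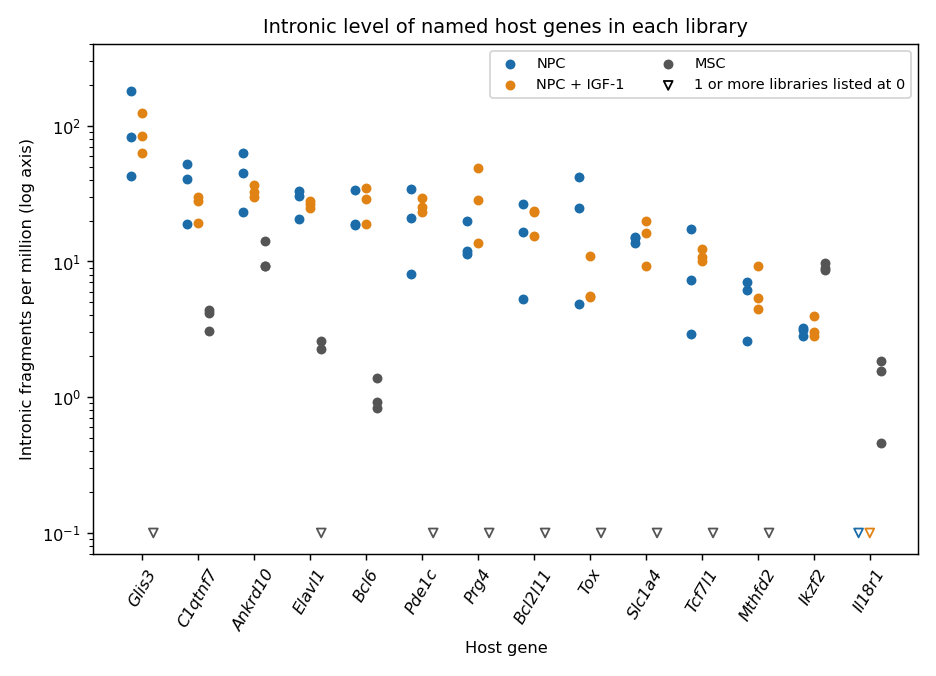
Intronic level (fragments per M, log axis) of 14 named host genes in each library, with open triangles at 0.1 where 1 or more libraries of a group are listed at 0. From Glis3 to Mthfd2 every induced library lies above every MSC library, and Ikzf2 and Il18r1 show the opposite order.

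In a few hosts the intronic level was higher and the mRNA lower in the induced libraries. Of the 3527 hosts with a higher intronic level in NPCs whose mRNA was tested, 90 had lower mRNA. Over all 12825 annotated genes tested, mRNA fell in 593 (4.62%). For NPC + IGF-1 the numbers were 73 of 2821 hosts and 729 of 13865 genes (5.26%). The genes below were picked as examples after their values were seen. Slc1a4, a neutral amino acid transporter gene, had intronic levels of 13.8, 15 and 15.1 in NPCs, 9.19, 19.7 and 16.2 in NPC + IGF-1 and none in MSCs, and mRNA of 13.5, 12.1 and 11 FPKM in NPCs, 10.2, 18.7 and 20.6 FPKM in NPC + IGF-1 and 38.3, 38.7 and 20.3 FPKM in MSCs. Its mRNA fell by 1.30 on the log2 scale in NPCs (SE 0.25, limma adjusted p = 0.0301) and did not pass the test in NPC + IGF-1 (adjusted p = 0.083), and the call in NPCs was lost with unannotated isoforms added and without NPC replicate 1, 2 or 3 or MSC replicate 1 or 2. Mthfd2, an enzyme of mitochondrial folate metabolism, was at 2.6, 7.04 and 6.13 in NPCs and 4.48, 5.34 and 9.31 in NPC + IGF-1 with none in MSCs, and its mRNA was at 11.2 to 27.8 FPKM against 61.1 to 75.2 FPKM. The beta-tubulin gene Tubb6 was at 1.53 to 4.95 against none, with mRNA of 22.3 to 44.6 FPKM against 71.0 to 105 FPKM. The mRNA calls of Mthfd2 and Tubb6 were lost when any of several single libraries was left out, and in NPCs those of all 3 genes were lost with the replicate number as a block.

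Other hosts with a higher intronic level and lower mRNA were picked in the same way, after their values were seen. Lmcd1, a LIM domain gene, was at 7.55, 2.24 and 2.02 in NPCs, 1.77, 0.267 and 5.74 in NPC + IGF-1 and 0, 0.336 and 0 in MSCs, with mRNA of 17.7 to 38.8 FPKM in the induced libraries and 152 to 165 FPKM in MSCs. Its mRNA fell by 2.59 and 2.33 on the log2 scale. Filip1l, named for its likeness to a filamin A interacting protein, was at 1.79 to 3.70 in the induced libraries and 0, 1.11 and 0.309 in MSCs, with mRNA of 4.78 to 8.54 FPKM against 28.8 to 33.3 FPKM. Camk2d, a subunit of the calcium and calmodulin dependent kinase CaMKII, was at 6.91, 6.42 and 2.55 in NPCs, 5.07, 0 and 3.85 in NPC + IGF-1 and 0.214, 0 and 0 in MSCs, with mRNA of 16.4 to 24.8 FPKM against 49.0 to 52.0 FPKM. Ube2k, a ubiquitin-conjugating enzyme gene, was at 47.3, 15.4 and 5.14 in NPCs, 28.7, 14.8 and 21.7 in NPC + IGF-1 and 0, 1.59 and 0 in MSCs, with annotated mRNA of 2.59 to 6.33 FPKM against 11.7 to 13.5 FPKM. The mRNA call of Ube2k was lost with unannotated isoforms added, without several single libraries and with the replicate number as a block, and that of Lmcd1 in NPCs with the block. Lmcd1, Camk2d and Ube2k had an intronic level in only 1 MSC library each and passed the filter only through induced libraries. Filip1l, at 0 in 1 MSC library, needed induced libraries as well. The test of the intronic level of each of these genes thus carries no weight. The intronic calls of Filip1l and Ube2k were lost with both other measures. That of Lmcd1 was lost with coverage times length in NPCs and with both in NPC + IGF-1. That of Camk2d in NPC + IGF-1 was lost with both and without most single libraries.

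Itgb1 had abundant mRNA in every group and a weak intronic contrast. Its intronic level was 2.78, 2.03 and 6.27 in NPCs, 3.73, 3.67 and 2.46 in NPC + IGF-1 and 3.32, 0 and 0 in MSCs, so that the groups overlapped. With a level in only 1 MSC library, Itgb1 passed the filter only through induced libraries, so the test of its intronic level carries no weight. It passed the test in NPC + IGF-1 and not in NPCs, and the former call was lost with both other measures of level and without any 1 of 5 libraries. The latter was gained without NPC replicate 1, 2 or 3 or MSC replicate 1. The mRNA of Itgb1 fell by 2.11 and 2.20 on the log2 scale.

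A few hosts had a higher intronic level in MSCs. Ikzf2, which encodes the transcription factor Helios, was at 8.65, 9.73 and 8.96 in MSCs, 2.81, 3.14 and 3.22 in NPCs and 3.98, 2.85 and 3.05 in NPC + IGF-1, a fall by 1.5 and 1.45 on the log2 scale (limma adjusted p = 0.00448 and 0.00898). Both calls of Ikzf2 were lost with both other measures of level. The interleukin 18 receptor gene Il18r1 was at 0.460, 1.57 and 1.85 in MSCs and was listed at 0 in all induced libraries, and Acat2l1 at 0.625, 0.739 and 0.418 likewise. The C-type lectin gene Clec2d was at 1.09, 1.77 and 1.22 in MSCs and at 0.233 in 1 of the 6 induced libraries. Its mRNA was lower in the induced libraries as well, at 0.458 to 1.27 FPKM against 5.26 to 7.59 FPKM. Il18r1, Acat2l1 and Clec2d passed the filter only through the MSC libraries, so the test of their intronic level carries no weight. The host ENSRNOG00000009760 on chromosome 7 carried the highest level of this kind, at 264, 233 and 258 in MSCs, 33.2, 37.9 and 91.9 in NPCs and 63.8, 43.2 and 52.4 in NPC + IGF-1, while its mRNA stayed between 5.30 and 7.70 FPKM in all libraries. Its call in NPC + IGF-1 was lost with FPKM times length. On chromosome 4, ENSRNOG00000017959 was at 2.33, 2.16 and 3.53 in MSCs and listed at 0 in the induced libraries. It likewise passed the filter only through the MSC libraries. With isoforms added, mRNA was lower in the induced cells for Il18r1, Ikzf2 and ENSRNOG00000017959, by log2 differences in NPCs of -2.95, -1.84 and -5.77.

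Gene lists could be read only where the files gave symbols, which left few members of each list. Of all 2452 genes named in the files, 837 were hosts. Of 17 contractile genes, 6 were named in the files, 4 were hosts and 1 was tested. This was Tagln, the smooth muscle gene of transgelin, with intronic levels of 0.226, 0.809 and 0 in NPCs, 1.91, 0.448 and 0.245 in NPC + IGF-1 and 0, 3.63 and 0 in MSCs, and mRNA of 27.4 to 138 FPKM in the induced libraries and 4237 to 4799 FPKM in MSCs. The groups of intronic levels overlapped, and neither comparison passed the test (adjusted p = 0.964 and 0.49). Of 20 matrix genes, 5 were named, 2 were hosts and Prg4 alone was tested. Of 21 growth factor signalling genes, 4 were named and Hbegf, an EGF receptor ligand, was the only host, at 1.13, 2.16 and 4.69 in NPCs, 2.16, 0.267 and 2.70 in NPC + IGF-1 and 0.574, 0.465 and 0 in MSCs. It passed the test upward in NPCs (log2 difference 2.88 ± 0.92 SE) and not in NPC + IGF-1. The call in NPCs was lost with both other measures and without NPC replicate 3. Hbegf, at 0 in 1 MSC library, could pass the filter only with induced libraries. These tests thus carry no weight, and their p values are not given.

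Of 12 stress and nutrient sensing genes, 4 were named and 2 were hosts. The stress-response factor Atf3 was at 0.259, 1.51 and 0.554 in NPCs, 0.332, 0 and 0.856 in NPC + IGF-1 and 0 in MSCs. Chac1, an enzyme that degrades glutathione, was at 0, 0 and 0.400 in NPCs, 0.215, 0.493 and 0 in NPC + IGF-1 and 0.946, 1.1 and 0.649 in MSCs, and passed the test downward in NPCs and not in NPC + IGF-1. In NPCs against MSCs, Chac1 passed the filter only through the MSC libraries, so that test carries no weight. The call of Chac1 was lost without NPC replicate 1 or 2. Of 12 clock and bHLH-PAS genes, 3 were named and hosts and 1 was tested, Npas2, at 0.744, 0.268 and 0.859 in NPCs, 0.890, 0 and 0.950 in NPC + IGF-1 and 0 in MSCs. Atf3 and Npas2 passed the filter only through induced libraries, and their calls, like that of Chac1, were lost with a pseudocount of 1. In the direct comparison of the induced groups none of these genes passed the test, which does not show that they were alike. Of 14 mitosis genes, 7 were named, 1 was a host and none was tested, and of 25 adhesion and axon guidance genes, 6 were named, 2 were hosts and none was tested. None of 17 splicing and nuclear RNA genes was named in the files.

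Addition of IGF-1 to EGF and bFGF changed little that could be told from the spread. The number of host-strand intronic transcripts in NPC + IGF-1 was 0.773 times that in NPCs, with overlapping groups (exact permutation p = 0.2), and their fragments were 0.745 times as many (exact permutation p = 0.3). The number of host genes did not overlap, at 5310 to 5491 with IGF-1 and 5543 to 6502 without it, with an exact permutation p of 0.1, the smallest possible for 3 against 3 libraries, and 0.185 after adjustment. Over the 1184 host genes with intronic transcripts in all 9 libraries, the median log2 difference was -0.35, with 268 genes above 0 and none called.

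Over all 6315 host genes tested, limma called none upward (0%) and 2 downward (0.0317%) with IGF-1, and 703 had an unadjusted p under 0.05. Among the hosts called downward, ENSRNOT00000041859 passed the filter only through the NPC libraries, so its call carries no weight. The levels of the groups did not overlap in 13.3% of the genes. With FPKM times length in place of implied fragments, 4 were called upward and 53 downward, so this count depends on the measure. For mRNA, 15 genes (0.108%) rose and 12 (0.0865%) fell. The ratio of intronic level to host mRNA rose in 1 host gene (0.0158%) and fell in 1 (0.0158%). The host ENSRNOG00000017469 on chromosome 1 had the widest gap among the highest hosts, at 323, 168 and 133 in NPCs, 25.1, 21.6 and 14.4 in NPC + IGF-1 and 1.53, 19.3 and 14.5 in MSCs, without overlap between the induced groups, but the difference did not pass the test (log2 difference -3.32 ± 0.81 SE, adjusted p = 0.155). Its level came almost wholly from 1 locus of 5923 bases in intron 1 that bordered an annotated exon. Against MSCs it rose in NPCs by a log2 difference of 4.70 (adjusted p = 0.00313), a call lost with both other measures and without NPC replicate 1, 2 or 3, and the difference turned to -2.25 when transcripts within 1000 bases of exons were left out.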

How the data were processed

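Per the labels, reads of 9 stranded poly(A) libraries were processed with CASAVA 1.8, bcl2fastq, TopHat, Bowtie2, Cufflinks and Cuffdiff, and the authors deposited 1 Cufflinks transcript file per library, with FPKM, its 95% confidence interval and coverage for each transcript. For the genome build and annotation release: not given in the sources used here. Also, the study's methods state another route for its own gene tables, which did not make these files. The deposited FPKM values are normalised to library size and effective length, with no counts.

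Transcripts were classified by position in Python 3.11.15 (numpy 2.4.6, pandas 2.3.3, scipy 1.17.1, matplotlib 3.10.9). Fragments were implied from the FPKM and its upper confidence bound, and divided by a library depth estimated from unannotated transcripts of 1 exon and at least 2000 bases, with a fragment length of 200 bases. Of 7 estimators of depth tried, this 1 was kept after comparison with read numbers known from other sources, and the other 6 were run as alternatives. The level was first planned as FPKM times length, but its sums exceeded what a library can hold, and implied fragments became the main measure after values were seen. Intervals of single transcripts cover counting error only.

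Host levels were divided by size factors of the annotated genes and tested with limma 3.58.1 in R 4.3.3 (empirical Bayes with trend, Benjamini-Hochberg adjustment) on log2(level + 0.1), with a filter of 0.1 in at least 3 libraries. A fold change on this scale understates the change of low genes. NPCs and MSCs were fitted as those 2 groups, and comparisons with NPC + IGF-1 used all 9 libraries. In all, 162 limma fits were made over measures, comparisons and settings. Per-library quantities were tested by exact permutation, two-sided, in families of 24 planned tests and of 64 and 8 tests added after the data were seen. The p-values measure the spread between libraries. The fit was tested on simulated data in 2 ways, and where the simulation used the real spread within groups most changed genes were missed, so genes not called may still differ.

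Symbols came from the study's tables, which named 2452 genes of the files. The rule for named genes was the highest hosts, the largest called changes without overlap, hosts with most transcripts and members of fixed lists. Nearly all hosts it picked had no symbol, so that Glis3, Pde1c, Prg4, Bcl2l11 and the list members were named by the rule and the other symbols were chosen after their values were seen. Members and lists were chosen with earlier results of these data known. Alternatives covered distance to exons, length, low values, merging of neighbours, pseudocount, filter, scaling, variance model, libraries, replicate block and measure of level. Sequences were not used here. Certain items are not reported here.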

Additional observations from a re-analysis of the deposited data

Results flagged for a closer look

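Unannotated transcripts of 1 exon outside the host strand also differed between the groups. On the other strand of annotated genes they carried 2.16 times the MSC mean of fragments per M (M for 1e6) in the 6 induced libraries, and between genes 1.58 times. These classes entered the host-strand comparison only as a reference.

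The comparison of NPC + IGF-1 with NPCs called a pair of hosts, both without a symbol. ENSRNOT00000027763 on chromosome 10 had intronic levels of 1.45, 4.60 and 2.14 in NPCs and 0.557, 0.827 and 0.418 in MSCs and was listed at 0 in all NPC + IGF-1 libraries, with a log2 difference between NPC + IGF-1 and NPCs of -4.66 (limma adjusted p = 0.0226). ENSRNOT00000041859 on chromosome 8 was at 5.14, 6.55 and 1.57 in NPCs and listed at 0 in the other groups. Its log2 difference between NPC + IGF-1 and NPCs was -5.28. This host passed the filter only through the NPC libraries, so its test carries no weight and its p is not given. The size of both log2 differences depends on the pseudocount. No host was called under the replicate block or with transcripts at least 1000 bases from exons.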

How the results depend on the processing

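The rise of number, hosts, level and host-strand share in induced cells kept its direction under every alternative run. With 6 induced against 3 MSC libraries, its exact permutation p went from 0.0238 to 0.0741 under the replicate block, with log2 differences of 2.19 for number, 1.20 for hosts and 2.02 for level and a share higher by 2.30 points. Without 1 MSC library the smallest possible exact permutation p was 0.0714, and leaving out any 1 library gave 2.06 to 2.46, 1.10 to 1.39, 1.91 to 2.15 and 2.10 to 2.42 points. Same-numbered libraries of different groups did not deviate together (correlations from -0.0649 to 0.0570), and although NPCs were made from MSCs of the same rats, no source ties a number to a rat, so the numbers were not taken to pair libraries.

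Median length had no stable direction. The log2 difference turned to 0.00343 in NPCs with transcripts of at least 300 bases. In NPC + IGF-1 it turned to 0.00288 at least 1000 bases from exons, 0.0148 with at least 300 bases, 0.0592 with neighbours within 500 bases merged and 0.0312 with at least 25 implied fragments, and ranged from -0.0518 to 0.0281 when 1 library was left out. Over all induced libraries it turned to 0.00914, 0.0197 and 0.00842 with at least 300 bases, with merging and with at least 25 fragments. Median FPKM turned lower than in MSCs with at least 25 fragments, by log2 differences of -0.0623 in NPCs, -0.188 in NPC + IGF-1 and -0.124 over all induced libraries.

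Counts of hosts called by intronic level moved as follows. In NPCs against MSCs 2270 were called at least 1000 bases from exons, where fewer were tested, and 1970 to 3904 without 1 library, the lowest without NPC replicate 1 (1970), 2 (2082) or 3 (2445), where the filter left fewer hosts. In NPC + IGF-1 against MSCs 1652 were called at least 1000 bases from exons, 1962 with coverage times length, 1975 with a pseudocount of 1 and 2452 to 3215 without 1 library. Between the induced groups 0 were called at least 1000 bases from exons (493 at an unadjusted p under 0.05), 32 with coverage times length, 7 without trend, 57 with FPKM times length, 5 without a filter, 1 with a pseudocount of 1, 0 under the replicate block (686 at an unadjusted p under 0.05) and 0 to 9 without 1 library, with 9 without NPC replicate 3.

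For mRNA, NPCs against MSCs gave 304 under the replicate block (140 up, 164 down), 3038 with unannotated isoforms added (1873 up, 1165 down) and 468 to 829 without 1 library. NPC + IGF-1 against MSCs gave 3087 with isoforms (1836 up, 1251 down) and 960 to 1534. The induced groups gave 17 with a pseudocount of 1, 9 with isoforms and 32 to 47. For the ratio to mRNA, NPCs against MSCs gave 1381 at least 1000 bases from exons and 0 to 2188 without 1 library, where 0 and 1 were called without NPC replicate 1 and 2. NPC + IGF-1 against MSCs gave 747 at least 1000 bases from exons, 2751 with isoforms and 592 to 1670. The induced groups gave 9 with coverage times length, 12 with FPKM times length, 4 without a filter, 1 with the other set of libraries, 52 with a pseudocount of 0.01, 0 to 3 without 1 library, and 0 without trend, with a filter of 0.5, with a pseudocount of 1, under the replicate block or with isoforms, where 537, 346, 596, 538 and 627 had an unadjusted p under 0.05.

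Among single hosts, ENSRNOG00000017469 in NPCs turned to -2.25 at least 1000 bases from exons. Tagln, never called, ranged from -0.93 to 0.74 in NPCs without 1 library, turning without NPC replicate 3, and turned to 0.84 with a pseudocount of 0.01, and in NPC + IGF-1 to -0.80 with coverage times length and -0.23 with FPKM times length. Under the replicate block the mRNA calls of Bcl3, Meox2, Lmcd1, Gclc, Glis3, Mthfd2, Nr3c1, Slc1a4, Snai1, Tubb6 and Ube2k in NPCs were lost. The cause of these changes was not tested, apart from those where fewer hosts or libraries entered the fit. Depth limits single transcripts, a median one of which rested on 14 to 16 fragments.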
